A study of Mus musculus with 26 samples.

Results

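Expression of 10 contractile and actin genes was examined in mouse embryonic fibroblasts (MEFs) that differ in the chromatin remodeler ATRX. The genes were Acta2, Actg2, Actb, Tagln, Cnn1, Cnn2, Myl9, Tpm1, Tpm2 and Srf, chosen by name, and each matched a single identifier among the 53801 gene identifiers of the RNA-Seq files. For RNA-Seq there were 2 WT libraries, 2 ATRXΔRBR libraries and 2 libraries labelled ATRX KD. ATRXΔRBR cells are 1 CRISPR clone of female MEFs whose endogenous ATRX lacks its RNA-binding region (RBR). ATRX KD cells carry an shRNA against ATRX and were selected with puromycin. No sample is labelled as a control shRNA line, so loss of ATRX, selection and differences between lines cannot be told apart. CUT&RUN, in which an antibody-tethered nuclease cuts out the chromatin around a protein, gave 2 peak lists per genotype for ATRX (WT and ATRXΔRBR), EZH2 and H3K27me3 (WT, ATRXΔRBR and ATRX KD). EZH2 is the methyltransferase of Polycomb repressive complex 2, and H3K27me3 is the repressive histone mark that it deposits. The study describes its sequencing replicates as biological, but the labels do not tie the libraries to separate cultures, and p-values measure the spread between 2 libraries per genotype. In such bulk libraries, fewer cells that express a gene and less RNA per cell cannot be told apart.

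Actin filaments and non-muscle or smooth muscle myosin give fibroblasts their stress fibres and their tension on the matrix. Actb encodes the cytoplasmic β-actin of most cells, whereas Acta2 and Actg2 encode smooth muscle actins, and Acta2 is the usual marker of activated, contractile fibroblasts. Tpm1 and Tpm2 encode tropomyosins that lie along the filament, Tagln and the calponins Cnn1 and Cnn2 bind actin, and Myl9 encodes a regulatory light chain of myosin. Srf encodes serum response factor, a transcription factor that binds the CArG box in promoters of many of these genes and acts with cofactors of the myocardin family.

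In WT MEFs, the genes covered a wide range of abundance. Levels are given in TPM (a scale corrected for gene length and library size), in replicate 1 and replicate 2. Actb (ENSMUSG00000029580, chr5:142903115-142906754) was at 2693 and 1568 TPM. Tpm1 (ENSMUSG00000032366, chr9:67022590-67049406) was at 1862 and 1824 TPM, within the range of Actb. Cnn2 (ENSMUSG00000004665, chr10:79988584-79996062) followed at 332 and 273 TPM and Tpm2 (ENSMUSG00000028464, chr4:43514711-43523765) at 211 and 140 TPM. These 4 genes thus stood far above the smooth muscle actin gene in WT cells.

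Acta2 (ENSMUSG00000035783, chr19:34241090-34255590) was at 60.5 and 57.2 TPM, and Srf (ENSMUSG00000015605, chr17:46548329-46556175) at 43.9 and 42.6 TPM. Tagln (ENSMUSG00000032085, chr9:45929619-45936058) was at 9.87 and 10.4 TPM and Myl9 (ENSMUSG00000067818, chr2:156775420-156781658) at 4.47 and 3.42 TPM. Among these 8 genes, Actb and Tpm1 were the neighbours in the order whose WT values overlapped. Actg2 (ENSMUSG00000059430, chr6:83512905-83536265) had 9.11 or fewer estimated counts in each of the 6 libraries, and Cnn1 (ENSMUSG00000001349, chr9:22099216-22109630) had 3 or fewer. Both are listed genes that these MEFs barely expressed, in any genotype. In the plot of TPM by library, Acta2 and Tpm2 are low in the libraries labelled ATRX KD, whereas Actb is not.

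**Figure D1:**
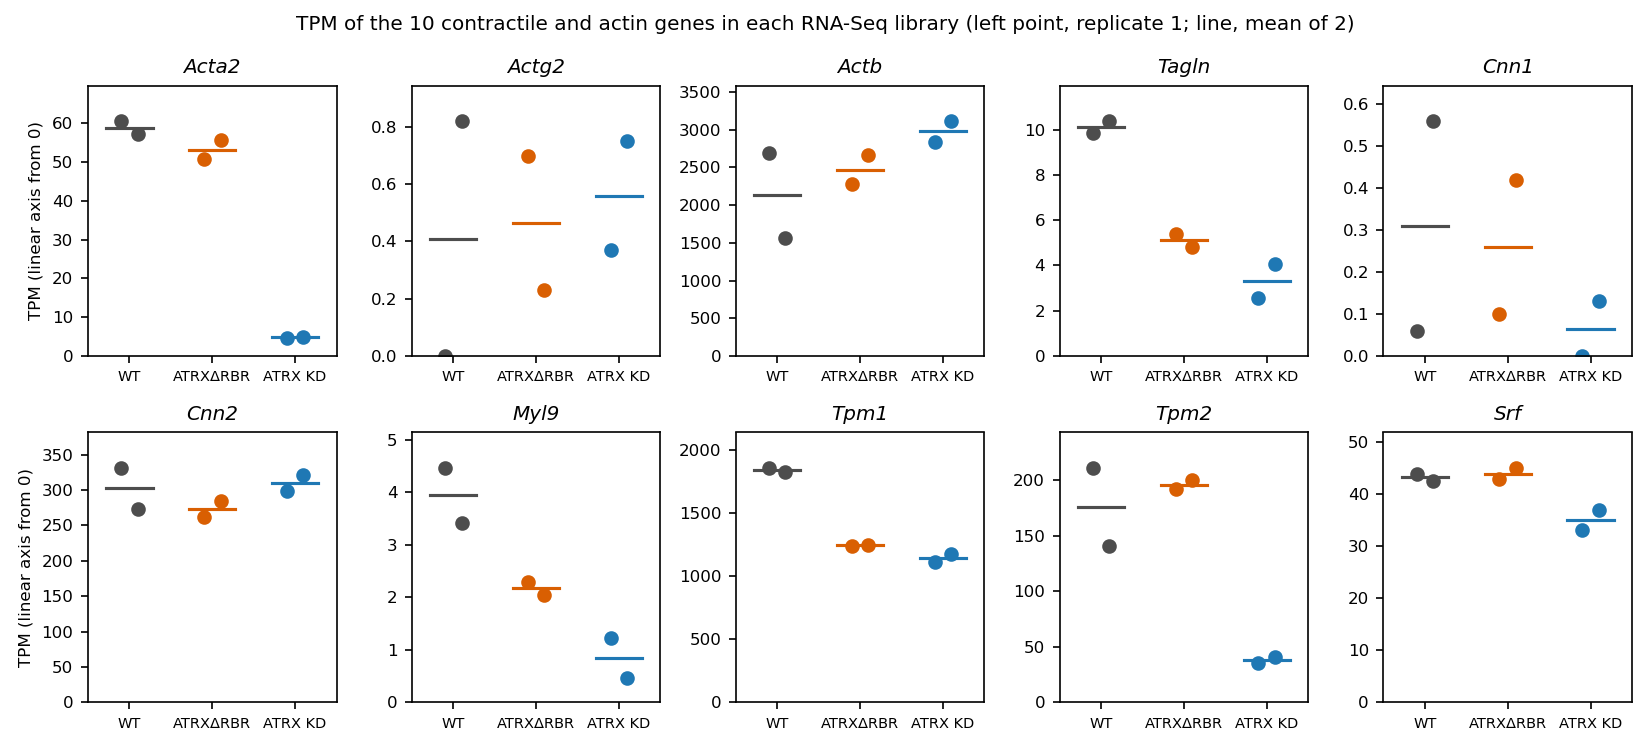
TPM of each of the 10 genes (vertical axes, linear from 0) in the 2 libraries of WT, ATRXΔRBR and ATRX KD MEFs; points are libraries and lines are means of 2. Acta2 lies between 50.8 and 60.5 TPM in the WT and ATRXΔRBR libraries and at 4.73 and 4.77 TPM in the ATRX KD libraries, while Actg2 and Cnn1 stay under 1 TPM.

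The libraries held 9051693 to 21723647 estimated counts, of which 2.13 to 2.77% were mitochondrial. Atrx itself was at 633 and 434 CPM (counts scaled to library size) for WT, 371 and 312 for ATRXΔRBR, and 411 and 550 for the libraries labelled ATRX KD. WT and ATRX KD overlapped on this scale (ATRX KD against WT, log2 fold change -0.15, SE 0.21, edgeR adjusted p = 0.604). The ATRXΔRBR values lay below both other groups. This difference did not pass the test of edgeR against WT (log2 fold change -0.63, SE 0.22, adjusted p = 0.14). Nor did that of ATRX KD against ATRXΔRBR (0.47, SE 0.16, adjusted p = 0.053). On the TPM scale Atrx was at 233 and 141 for WT and at 331 and 512 for ATRX KD, and its RNA does not check the ATRX KD label. The paper assessed its knockdown at the protein level, by western blot, and describes ATRX as depleted in ATRX KD MEFs. Of 10 fibroblast markers, 8 or 9 had at least 10 counts in each library, summing to 12060 to 16260 CPM for WT, 20970 to 21060 for ATRXΔRBR and 16830 to 18180 for ATRX KD, and Thy1 was at 0 in every library. Of 7 smooth muscle markers, 1 or 2 had at least 10 counts, and their sum was 69.4 to 76.2 CPM for WT, 118 to 124 for ATRXΔRBR and 83.8 to 95.8 for ATRX KD. Myocd, the smooth muscle cofactor of SRF, had 2 or fewer counts. Of the 10 fibroblast markers, 9 were tested. In ATRX KD against WT, 4 were higher (Pdgfrb, S100a4, Fn1 and Fbn1) and 1 was lower (Col3a1), and in ATRXΔRBR against WT 2 were higher (S100a4 and Fbn1) and 1 was lower (Col3a1). Of the 7 smooth muscle markers, 3 were tested in ATRXΔRBR against WT. Des and Smtn were higher (edgeR adjusted p = 0.0194 and 0.0437) and 0 were lower, beside 2.79% of all genes higher. DESeq2 did not call Des (adjusted p = 0.0625). In ATRX KD against ATRXΔRBR, 6 smooth muscle markers were tested, 0 were higher and 2 lower, beside 18.5% of all genes lower. Skeletal muscle, cardiac muscle and epithelial markers each summed to at most 2.31 CPM in every library, endothelial markers to 5.67 CPM and blood markers to 11.1 CPM. The part of a change in cell makeup in the results was not tested.

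In the libraries labelled ATRX KD, Acta2, Myl9, Tpm2, Tagln, Tpm1 and Srf were lower than in WT, and Actb, Cnn2 and Actg2 did not pass the test. Of 7 smooth muscle markers, none of which is among these 6 genes, 6 were tested, 1 was higher (Myh11) and 0 were lower. In WT, Smtn averaged 71.6 CPM, but each other marker averaged 0.404 CPM or less, so these could hardly be called lower. Myh11 averaged 0.0382 CPM in WT and was not called by DESeq2 (adjusted p = 0.0955). By the quasi-likelihood test of edgeR (Benjamini-Hochberg adjusted over all 16748 genes tested), 33.1% of genes were called, 15.2% higher and 17.8% lower. Of the 10 genes, 9 had more than 10 counts over the 4 libraries and were tested, 6 of these were called, and each of the 6 was lower. Cnn1 was not tested. The median log2 fold change of the 9 was -0.93, beside -0.02 over all genes tested. 7 of the 9 fold changes were below 0, beside 51.0% of all genes.

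Acta2 showed the largest change, with 759 and 588 estimated counts in WT and 33.5 and 81.6 in ATRX KD. Both ATRX KD values lay far below the WT values, although 1 of these libraries was the deepest of the 6. Acta2 was 14.3-fold lower (log2 fold change -3.83, SE 0.18, adjusted p = 6.15e-05), and this call was kept in 12 of 12 alternative settings. Tpm2 had 1802 and 1039 counts in WT and 176 and 501 in ATRX KD, or 211 and 140 against 35.5 and 41.1 TPM. The groups did not overlap on the TPM scale, and Tpm2 was 5.28-fold lower (log2 fold change -2.40, SE 0.24, adjusted p = 0.000728).

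Myl9 had 35 and 22 counts in WT and 2 and 5.01 in ATRX KD (log2 fold change -3.27, SE 0.53, adjusted p = 0.00451). With so few counts the size of this change is poorly known, and its 95% interval ran from -4.53 to -2.02. Tagln fell from 9.87 and 10.4 TPM to 2.55 and 4.05 TPM, a 3.41-fold difference (log2 fold change -1.77, SE 0.29, adjusted p = 0.00477). Tagln shares 1241 bp of exons with Gm48529, an annotated antisense gene on the other strand, and the strand setting used for counting is not given in the sources used here. The share of the counts of this pair that was assigned to Gm48529 was 24.7 and 31.0% for WT, 38.7 and 32.1% for ATRXΔRBR, and 65.6 and 58.9% for ATRX KD. With the counts of the pair summed, an alternative chosen after seeing the data, the difference between ATRX KD and WT was 1.83-fold (log2 fold change -0.87, SE 0.21, adjusted p = 0.0206), so the size of the Tagln change is uncertain.

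Tpm1 remained abundant, at 1862 and 1824 TPM in WT and 1117 and 1180 TPM in ATRX KD, and was 1.90-fold lower (log2 fold change -0.93, SE 0.11, adjusted p = 0.00146). Srf itself was 1.44-fold lower (log2 fold change -0.52, SE 0.14, adjusted p = 0.0255), at 43.9 and 42.6 TPM in WT and 33.2 and 37.0 TPM in ATRX KD. The Srf call was lost without ATRX KD replicate 1 (adjusted p = 0.291), without ATRX KD replicate 2 (adjusted p = 0.129) and with limma on log2(TPM + 1) (adjusted p = 0.18). Acta2, Tpm2, Myl9, Tagln and Tpm1 were called in every alternative in which they could be tested.

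Actb, Cnn2 and Actg2 did not pass the test. Actb was at 2693 and 1568 TPM in WT and 2842 and 3114 TPM in ATRX KD (log2 fold change 0.04, 95% interval -0.60 to 0.67, adjusted p = 0.931). Its 2 WT libraries differed so much that the log2 fold change was 0.58 without WT replicate 1 and -0.36 without WT replicate 2. With 1 WT library, the fit holds no spread between WT libraries, so these are given as effect sizes only. Cnn2 was at 332 and 273 TPM in WT and 299 and 321 TPM in ATRX KD, so its groups overlapped (log2 fold change -0.39, 95% interval -0.81 to 0.02, adjusted p = 0.129). The direction for Cnn2 depended on the scale, since limma on log2(TPM + 1) gave 0.04. Without WT replicate 2, the log2 fold change of Cnn2 was -0.64.

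The ATRXΔRBR MEFs were compared with WT to ask about loss of the RBR. Because they are 1 clone, the deletion and differences between clones cannot be told apart. Here 6.88% of 16287 genes were called, 2.79% higher and 4.08% lower. Of the 10 genes, 8 were tested, and 0 were called by edgeR. Of these 8, 3 had an unadjusted edgeR p under 0.05, beside 3355 of the 16287 genes. DESeq2 called 1 of the 8, beside 1125 of the 16287 genes. The median log2 fold change of the 8 was -0.22, beside -0.02 over all genes tested, and Actg2 and Cnn1 were not tested.

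Tagln, Myl9 and Tpm1 had the 3 lowest p-values. Their groups did not overlap, and neither did those of Acta2 on the TPM scale (edgeR adjusted p = 0.613). Tagln was at 9.87 and 10.4 TPM in WT and at 5.38 and 4.83 TPM in ATRXΔRBR (log2 fold change -0.94, SE 0.27, adjusted p = 0.0873). Myl9 was at 35 and 22 counts (WT) against 10 and 16 (ATRXΔRBR) (log2 fold change -1.01, SE 0.42, adjusted p = 0.225). Tpm1 was at 1862 and 1824 TPM in WT and at 1244 and 1250 TPM in ATRXΔRBR (log2 fold change -0.62, SE 0.16, adjusted p = 0.0624). Tpm1 was the gene called by DESeq2 (adjusted p = 0.0303), and edgeR called it without the filter on low counts (adjusted p = 0.00382) and with all 6 libraries in a single fit (adjusted p = 0.0167). Without the filter, Tagln was called as well (adjusted p = 0.036).

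Acta2 was at 60.5 and 57.2 TPM in WT and at 50.8 and 55.6 TPM in ATRXΔRBR (log2 fold change -0.20, 95% interval -0.64 to 0.24, adjusted p = 0.613). An Acta2 difference of the size seen in ATRX KD lies outside this interval. The fold changes of Actb (0.13, 95% interval -0.54 to 0.81), Tpm2 (0.11, -0.45 to 0.67), Cnn2 (-0.24, -0.75 to 0.27) and Srf (-0.04, -0.45 to 0.38) were within 0.25 of 0 on the log2 scale. Their intervals still allow changes of up to 0.81.

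The libraries labelled ATRX KD were also compared directly with ATRXΔRBR to order the levels. This comparison shares its libraries with those above. It called 34.8% of 16485 genes, 16.3% higher and 18.5% lower, and 4 of the 9 genes tested, each lower in ATRX KD. Acta2 (50.8 and 55.6 against 4.73 and 4.77 TPM) was 12.5-fold lower (log2 fold change -3.65, SE 0.19, adjusted p = 3.09e-06). Tpm2 (192 and 200 against 35.5 and 41.1 TPM) was 5.76-fold lower (log2 fold change -2.53, SE 0.16, adjusted p = 1.12e-05). Myl9 was lower by 2.27 (SE 0.61, adjusted p = 0.0197) and Srf by 0.50 (SE 0.14, adjusted p = 0.0223) on the log2 scale. DESeq2 did not call Myl9 (adjusted p = 0.123), limma on log2(TPM + 1) did not call Myl9 (adjusted p = 0.0747) or Srf (adjusted p = 0.143), and without ATRX KD replicate 2 neither was called (adjusted p = 0.098 and 0.151).

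Of the genes called lower in ATRX KD against WT, Tagln, Tpm1, Myl9 and Acta2 had ATRXΔRBR mean TPM between those of WT and ATRX KD. For Tagln, the mean was 10.1 ± 0.354 TPM for WT, 5.11 ± 0.389 for ATRXΔRBR and 3.30 ± 1.06 for ATRX KD (SD, n = 2), and for Tpm1 it was 1843 ± 26.8, 1247 ± 3.79 and 1149 ± 44.4. The difference between ATRX KD and ATRXΔRBR did not pass the test for Tagln (adjusted p = 0.0681, and 0.767 with Gm48529 summed) or Tpm1 (adjusted p = 0.0623). For Acta2, the means were 58.8 ± 2.39, 53.2 ± 3.36 and 4.75 ± 0.0283 TPM, and for Myl9 they were 3.945 ± 0.742, 2.17 ± 0.184 and 0.845 ± 0.53 TPM. For Tpm2, the libraries were at 211 and 140, 192 and 200, and 35.5 and 41.1 TPM in the same order. The plot of fold changes sets the 3 comparisons side by side.

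**Figure D2:**
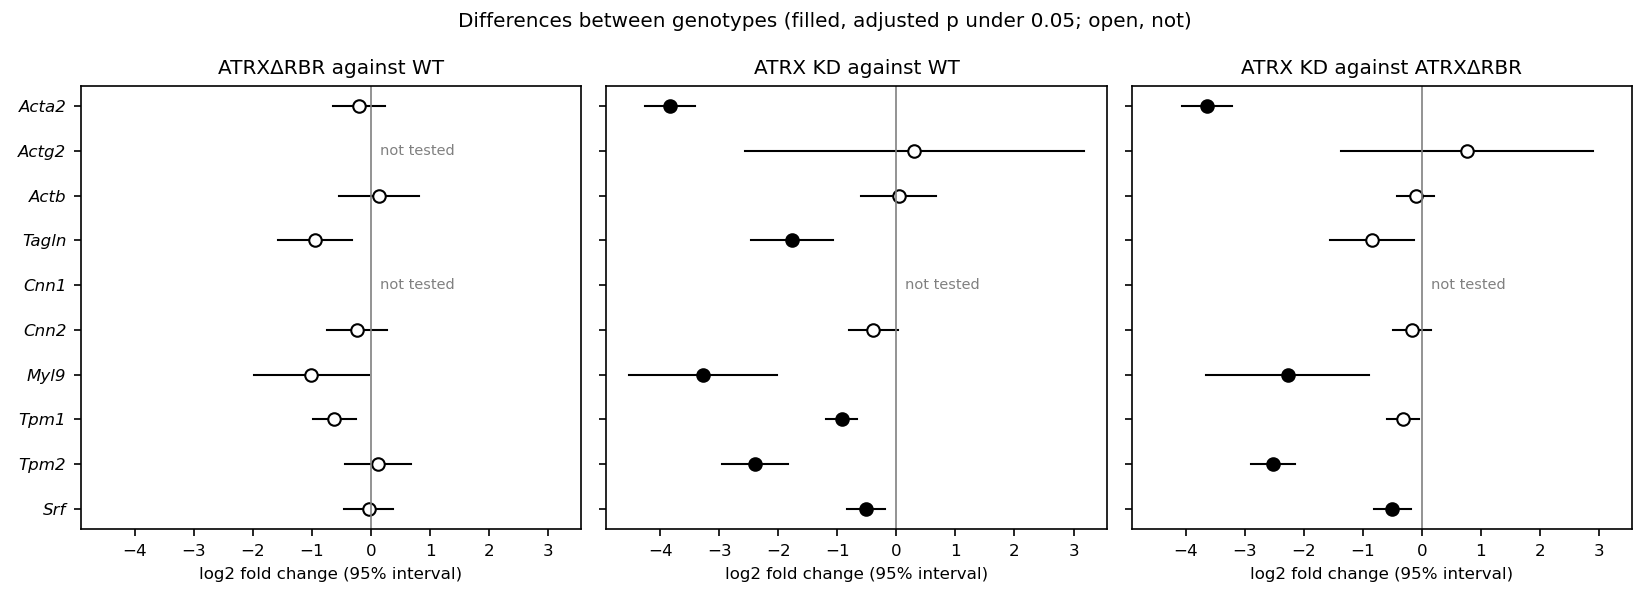
Log2 fold change (horizontal axis) with its 95% interval for each gene in the 3 comparisons, from edgeR's quasi-likelihood fits; filled points have an adjusted p under 0.05. In ATRXΔRBR against WT 0 of 8 tested genes are filled, in ATRX KD against WT 6 of 9, from Acta2 at -3.83 to Srf at -0.52, and in ATRX KD against ATRXΔRBR 4 of 9.

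Promoter sequences from RefSeq (GRCm38.p6, 250 bases before to 50 after a start) were available for 7 of the 10 genes, and Actb, Actg2 and Tagln did not match. The CArG box was searched in each window. Its pattern reads the same on both strands. 3 of the 7 windows held it, beside 1.63% of all 32851 promoter windows in the table (535 windows). Positions are counted from the RefSeq start. The Srf window held CCATATAAGG at -82 to -73 and CCATAAAAGG at -62 to -53, and 6 windows of the whole table held at least 2 such boxes. The Myl9 window held CCTAATAAGG at -161 to -152, and the Cnn2 window held CCTTATAAGG at -56 to -47. Acta2 held no exact box, but CCCTATATGG at -84 to -75 and CCTTGTTTGG at -34 to -25 were within 1 mismatch. With 1 mismatch allowed, a choice made after the windows were seen, 5 of the 7 windows and 21.1% of all windows held a match. A match describes the letters and does not show that SRF binds there. The windows of Acta2 and Myl9, both called lower in ATRX KD, and of Srf are given 5′ to 3′ on the strand of the gene, with the exact boxes of Srf and Myl9 and the mismatched boxes of Acta2 in capitals.
Acta2, chr19:34255324-34255623, minus strand: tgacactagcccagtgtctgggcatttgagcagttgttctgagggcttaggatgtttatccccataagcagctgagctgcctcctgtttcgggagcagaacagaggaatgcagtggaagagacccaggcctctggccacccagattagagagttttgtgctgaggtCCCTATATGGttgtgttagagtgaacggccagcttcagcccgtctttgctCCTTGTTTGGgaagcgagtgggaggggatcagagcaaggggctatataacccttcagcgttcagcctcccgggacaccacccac
Myl9, chr2:156775214-156775513, plus strand: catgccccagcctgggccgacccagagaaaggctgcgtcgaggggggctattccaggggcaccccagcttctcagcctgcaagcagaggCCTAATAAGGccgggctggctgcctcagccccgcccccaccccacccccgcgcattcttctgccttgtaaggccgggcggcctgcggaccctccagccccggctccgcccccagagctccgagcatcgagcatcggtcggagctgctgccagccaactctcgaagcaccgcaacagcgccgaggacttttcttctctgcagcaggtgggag
Srf, chr17:46556113-46556412, minus strand: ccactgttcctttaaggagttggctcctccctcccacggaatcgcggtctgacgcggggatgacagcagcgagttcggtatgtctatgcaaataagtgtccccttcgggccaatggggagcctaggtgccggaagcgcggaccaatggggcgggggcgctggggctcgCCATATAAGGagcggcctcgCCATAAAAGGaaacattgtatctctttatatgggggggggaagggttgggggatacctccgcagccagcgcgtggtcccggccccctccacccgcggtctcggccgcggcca

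The peak lists separated the genes into those with EZH2 at the transcription start site (TSS) and those without. A peak counted as at the TSS if it reached, by 1 bp or more, into the 2 kb on either side of the outermost gene start in GENCODE M21, the same mm10 (GRCm38) build on which the authors called the peaks. For Actb, Tpm1, Tpm2 and Srf, EZH2 was listed at the TSS in both WT lists, as for 66.5% of 13143 protein-coding genes with more than 10 counts over the 6 libraries. The same 4 genes had it in both ATRXΔRBR lists, beside 49.5% of coding genes. Srf alone of the 10 had it in both ATRX KD lists, beside 23.8% of coding genes. The ATRX KD lists were also the shortest, with 5376 and 7093 EZH2 peaks, against 22316 and 18351 for WT and 22418 and 11408 for ATRXΔRBR, and the read depth of each list is not given in the files.

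Of these 4 genes, Tpm2, Tpm1 and Srf were called lower in ATRX KD against WT, and Actb was not called. At Tpm2, a peak over the TSS was listed in 4 of 4 WT and ATRXΔRBR lists and in 0 of 2 ATRX KD lists. Actb showed the same pattern of lists, 4 of 4 and 0 of 2. Tpm1 had an EZH2 peak over its TSS in both WT lists, both ATRXΔRBR lists and ATRX KD replicate 2.

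Acta2, Cnn1 and Myl9 had no peak of ATRX, EZH2 or H3K27me3 within 2 kb of the TSS or along the gene in any of the 16 lists. Acta2, the gene with the largest RNA difference, was therefore among the genes without a listed peak in any genotype. Tagln had an EZH2 peak 518 bp upstream of its TSS in WT replicate 1, with a −log10 q of 2.01, and in no other list. Cnn2 had an EZH2 peak over its TSS in ATRXΔRBR replicate 1 and an ATRX peak 1706 bp upstream in WT replicate 1. None of these single-list peaks was repeated in the other replicate.

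**Figure D3:**
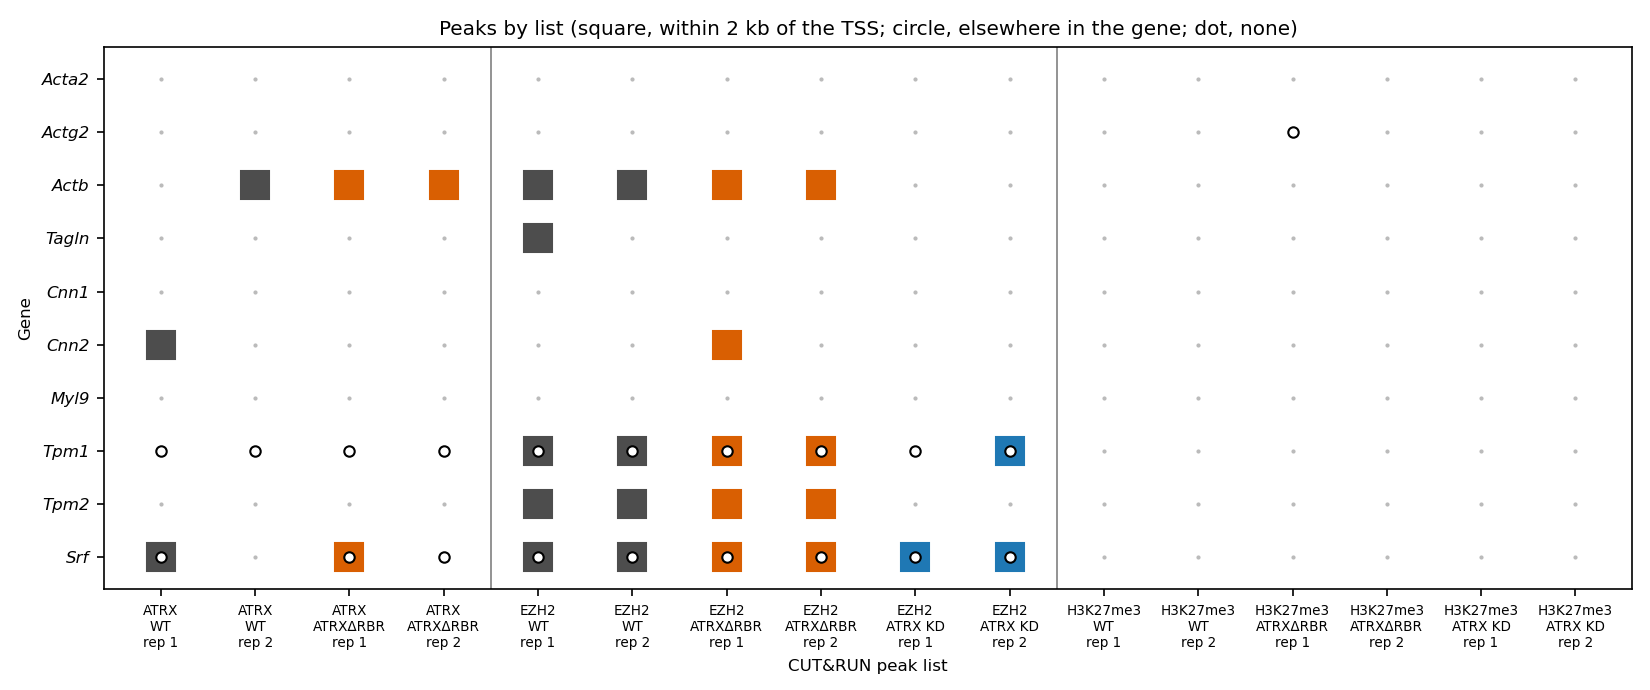
Presence of a peak in each of the 16 lists (horizontal axis) for each gene (vertical axis); squares mark a peak within 2 kb of the TSS and circles a peak elsewhere in the gene. EZH2 squares fill the WT and ATRXΔRBR columns of Actb, Tpm1, Tpm2 and Srf, 1 H3K27me3 column has a circle, at Actg2, and the rows of Acta2, Cnn1 and Myl9 are empty.

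ATRX peaks were fewer. None of the 10 genes had an ATRX peak at the TSS in both WT lists (5.75% of coding genes), and Actb had it in both ATRXΔRBR lists (4.85% of coding genes). Actb was also listed in WT replicate 2, and Srf in WT replicate 1 and ATRXΔRBR replicate 1. With a q-value of 0.01 or less, none of the 10 genes had ATRX at the TSS in both ATRXΔRBR lists. The share of coding genes at this q-value was not computed.

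The most repeated ATRX signal among these genes lay inside Tpm1. An ATRX peak about 5 kb downstream of the outermost TSS was listed in both WT and both ATRXΔRBR lists, and an EZH2 peak at the same place in all 6 EZH2 lists. The lowest −log10 q of these peaks was 1.59, for ATRX in ATRXΔRBR replicate 2. Values under 2 (a q-value of 0.01) were also found for EZH2 in ATRXΔRBR replicate 2 (1.84) and ATRX KD replicate 1 (1.73). The interval common to these 10 peaks was chr9:67043897-67044004, 108 bp with 77.8% G and C, of which 66 bp are annotated exon and 42 bp intron. It holds the starts of 2 of the 21 annotated Tpm1 transcripts, at an alternative promoter 5499 bp from the outermost start. When the start of any annotated transcript was counted as a TSS, Tpm1 thus had ATRX at a TSS in both lists of either genotype. The share of coding genes under this rule was not computed. The estimated counts are per gene and do not tell which Tpm1 transcripts were made. The common interval is given on the strand of the gene.
Tpm1, chr9:67043897-67044004, minus strand: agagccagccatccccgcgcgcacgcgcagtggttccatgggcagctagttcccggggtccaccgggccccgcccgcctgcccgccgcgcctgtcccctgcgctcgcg

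At Srf, the EZH2 peaks over the TSS shared chr17:46556127-46556426 in all 6 lists, an interval that contains both CArG boxes of the promoter window. The lowest −log10 q of these 6 peaks was 2.22, in ATRXΔRBR replicate 2. A further EZH2 peak, in an intron, was also present in all 6 lists and shared chr17:46553011-46553235. ATRX peaks lay near this intronic site in WT replicate 1 and in both ATRXΔRBR lists, though not in WT replicate 2. Srf lies within the span of Gm26904, a lincRNA on the opposite strand with which it shares 0 bp of exon. The map of peaks along Tpm1 and Srf shows these positions.

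**Figure D4:**
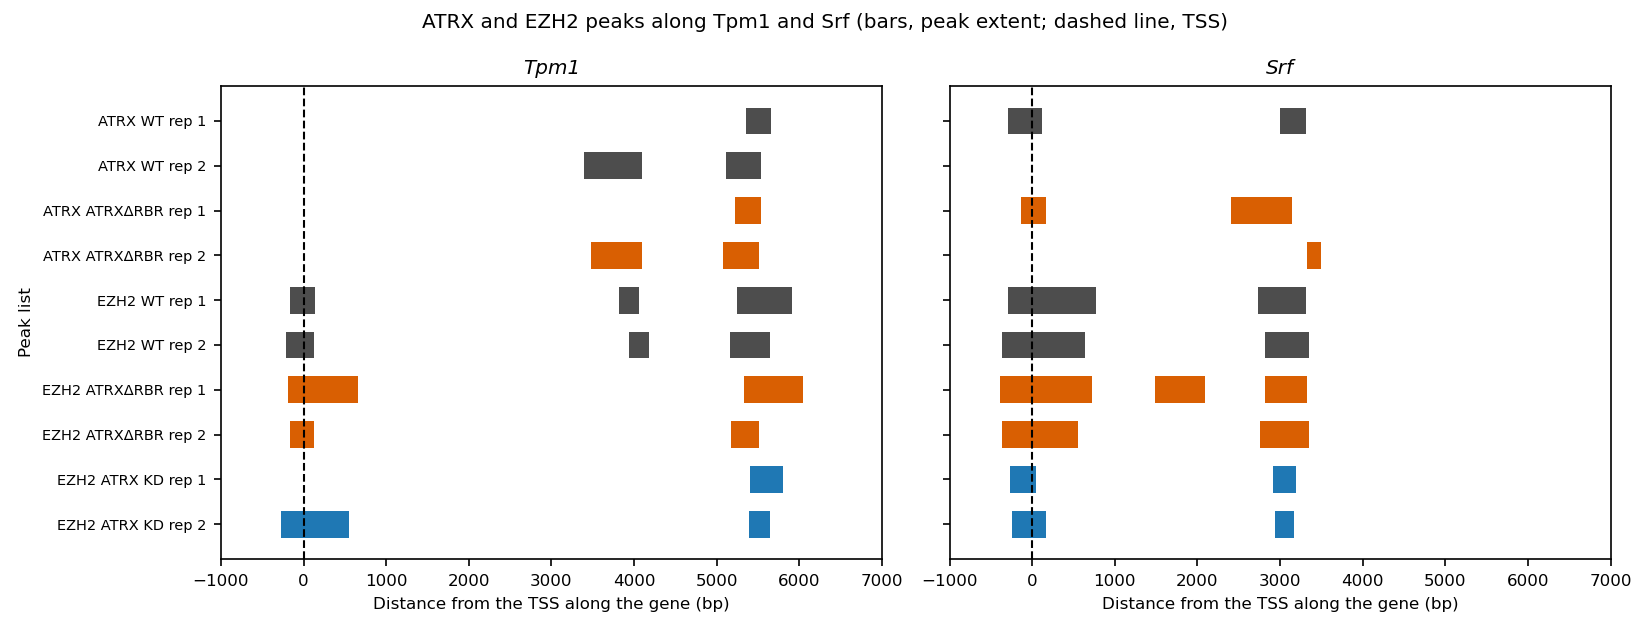
Extent of ATRX and EZH2 peaks along Tpm1 and Srf, with the distance from the TSS in bp on the horizontal axis and 1 row per list; grey is WT, orange ATRXΔRBR and blue ATRX KD. In Tpm1 all 10 rows have a bar about 5 kb downstream of the TSS, and in Srf all 6 EZH2 rows have bars over the TSS and about 3 kb downstream.

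H3K27me3 was not listed at the TSS of any of the 10 genes in any of the 6 lists. Of the 13143 coding genes, 7.67% had such a peak in both WT lists, 8.41% in both ATRXΔRBR lists and 3.02% in both ATRX KD lists. Actg2 and Cnn1, although barely expressed, thus had no H3K27me3 peak within 2 kb of the TSS. Within Actg2, 2 H3K27me3 peaks were listed, 2946 and 6012 bp downstream of the TSS, in ATRXΔRBR replicate 1 and in no other list.

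Genes around the contractile programme were taken from lists, and SRF cofactors come first. Of 5 listed, 4 were tested in each comparison with WT. In ATRXΔRBR 0 were called by edgeR and 0 by DESeq2, and 1 had an unadjusted p under 0.05, beside 3355 of 16287 genes. In ATRX KD 1 of the 4 was called, where 33.1% of all genes were. This gene was Mrtfb, an actin-regulated cofactor of SRF, which was higher (49.1 and 60.2 CPM in WT, 99.5 and 97.2 CPM in ATRX KD, log2 fold change 0.84, SE 0.14, adjusted p = 0.0049). Srf and Mrtfb thus moved in opposite directions in the same libraries.

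Immediate early targets of SRF, listed with earlier results of these data known, were mostly called lower in ATRXΔRBR, and their count depended on the setting. Of 6 listed genes, 5 were lower in ATRXΔRBR and 0 higher (median log2 fold change -0.97), beside 4.08% lower over all genes, against 1 lower and 0 higher in ATRX KD (median -0.05, and 0.28 on log2(TPM + 1)), where 17.8% of all genes were lower. Ccn1, which encodes a matricellular protein, was at 484 and 428 CPM for WT, 200 and 237 for ATRXΔRBR, and 542 and 567 for ATRX KD. The ATRXΔRBR values lay below those of both other genotypes (against WT, log2 fold change -1.05, SE 0.17, adjusted p = 0.01). Fos, which encodes a subunit of AP-1, was at 12.3 and 12.9 CPM for WT, 5.67 and 5.96 for ATRXΔRBR, and 10.4 and 12.6 for ATRX KD (against WT, -1.10, SE 0.23, adjusted p = 0.0263 in ATRXΔRBR). Fos was not called without ATRXΔRBR replicate 1 (adjusted p = 0.0577), without ATRXΔRBR replicate 2 (adjusted p = 0.0658), with the replicate block (adjusted p = 0.0595) or with limma on either TPM scale (adjusted p = 0.177 and 0.157). Egr1, a zinc finger factor, was at 285 and 231, 124 and 136, and 278 and 270 CPM in the same order (ATRXΔRBR against WT, -0.98, SE 0.18, adjusted p = 0.0168). Junb was the gene called lower in ATRX KD (log2 fold change -1.42, SE 0.16, adjusted p = 0.00127). The count of 5 in ATRXΔRBR was 3 with the replicate block, 3 without WT replicate 1, 2 without ATRXΔRBR replicate 1, and 3 and 2 with limma on log2(TPM + 1) and log2(TPM + 0.1). In the direct comparison, 4 of the 6 were higher in ATRX KD than in ATRXΔRBR and 0 lower, beside 16.3% higher over all genes.

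Among 29 other actin and contractile genes, changes went in both directions. In ATRXΔRBR 26 were tested, 4 were higher and 1 lower, with a median of 0.01, beside 2.79% higher and 4.08% lower over all genes. Mylk, the kinase that phosphorylates myosin light chains, was higher (21.5 and 19.4 CPM for WT, 83.5 and 73.7 for ATRXΔRBR, log2 fold change 1.95, SE 0.19, adjusted p = 0.000998), while its substrate gene Myl9 was not called. Des, the muscle intermediate filament gene, was at 4 and 2.97 counts (WT) against 16 and 31.0 (ATRXΔRBR) (log2 fold change 2.79, adjusted p = 0.0194). Des was not called by DESeq2 (adjusted p = 0.0625) or without ATRXΔRBR replicate 2 (adjusted p = 0.0583). Csrp1, a LIM protein of the cytoskeleton, was higher by 0.80 (adjusted p = 0.0406), and was not called without WT replicate 2 (adjusted p = 0.114) or without ATRXΔRBR replicate 2 (adjusted p = 0.161). The 5 calls became 3 without WT replicate 2, 2 without ATRXΔRBR replicate 2, 3 with the replicate block, and 1 of 22 with at least 10 counts in every library. Fhl1, another LIM protein, was at 89 and 120 counts (WT), 0 and 2 (ATRXΔRBR) and 0 and 0 (ATRX KD), and was called lower in each (adjusted p = 0.00106 and 0.000543).

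In ATRX KD 29 of these genes were tested, 9 were higher and 7 lower, with a median of 0.18, beside 15.2% higher and 17.8% lower over all genes. The 16 calls became 9 without ATRX KD replicate 1 and 7 without ATRX KD replicate 2. Tln1, Actn1 and Myh11 were the higher genes with the largest fitted changes. Tln1, the talin that couples integrins to actin, was at 328 and 308 CPM in WT and 645 and 737 in ATRX KD (log2 fold change 1.12, SE 0.12, adjusted p = 0.000884). Actn1, the actin-crosslinking α-actinin, was at 317 and 261 CPM in WT and 499 and 537 in ATRX KD (0.84, SE 0.13, adjusted p = 0.00387). Myh11, the smooth muscle myosin heavy chain, had 1 and 0 counts in WT and 7.56 and 13.1 in ATRX KD (adjusted p = 0.0271, and 0.0955 with DESeq2). Fhl1, Actg1 and Cfl1 were the lower genes with the largest fitted changes.

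Cfl1, which encodes the filament-severing protein cofilin, was lower by 1.09 (SE 0.22, adjusted p = 0.0105). Actg1, the cytoplasmic γ-actin gene, was lower by 1.33 (SE 0.25, adjusted p = 0.00727), but it had only 24.9 to 101 counts in the 6 libraries. Transcripts of 5 other genes among the RNA-Seq identifiers match Actg1 at 95% identity or more over at least 200 bp. They held 52.6 to 72.3% of the counts of this group, so the value of Actg1 is uncertain. Gm16385 matches as well (97.6% at best) but has no count in these data. Among the 10 genes themselves, Tagln had such a match, to Gm48529, and the other 9 had none.

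Among genes of TGF-β signalling, a pathway that induces Acta2 in fibroblasts, the ligand gene Tgfb2 was called in ATRX KD. Tgfb2 was at 20.2 and 16.2 CPM for WT, 29.0 and 26.8 for ATRXΔRBR, and 94.9 and 86.6 for ATRX KD. It was higher in ATRX KD than in WT (log2 fold change 2.31, SE 0.16, adjusted p = 0.000199), and its 2 ATRX KD values lay above the other 4.

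**Figure D5:**
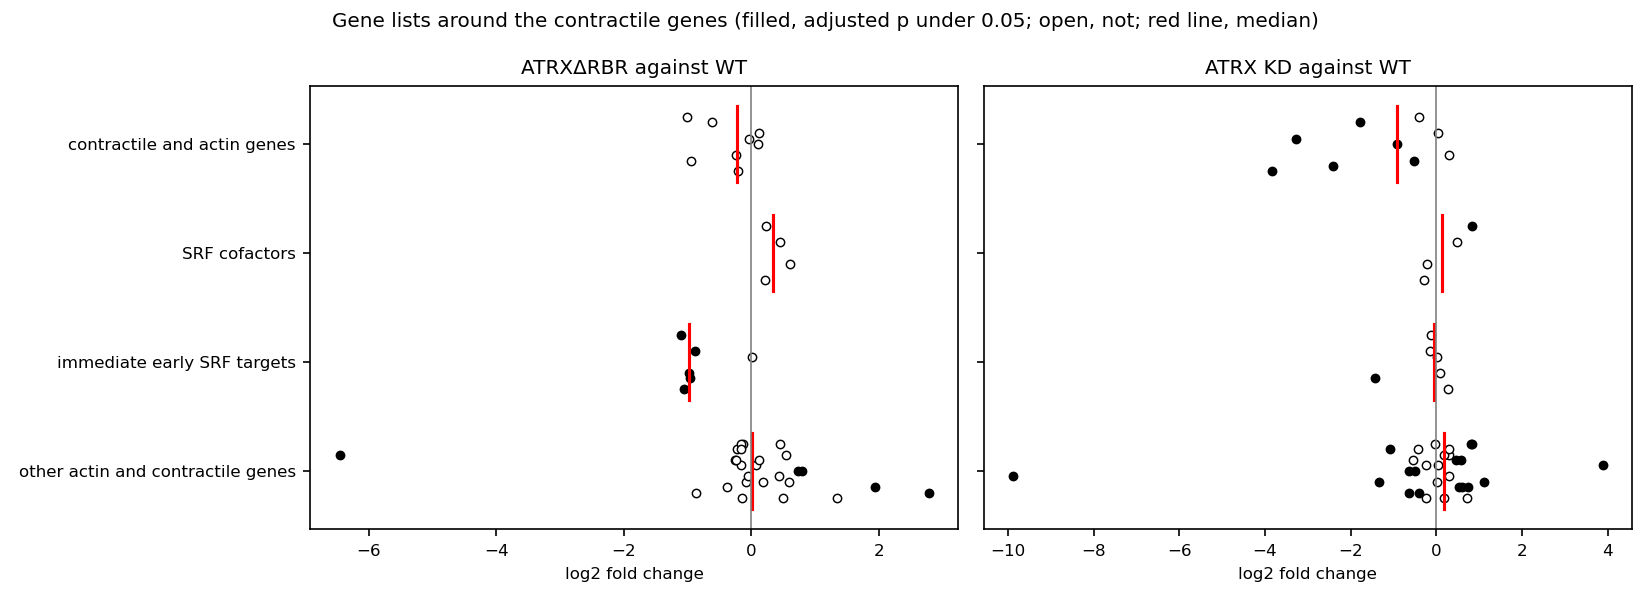
Log2 fold change against WT (horizontal axes) of the genes of each list in ATRXΔRBR (left) and ATRX KD (right); filled points have an adjusted p under 0.05 and red lines are medians. The contractile and actin genes have a median of -0.22 on the left and -0.93 on the right, and the immediate early SRF targets -0.97 and -0.05; the axes differ between the panels.

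The genes whose pattern over the 6 libraries was most like that of Acta2 were Snhg6, Ltbp4, Rrad, Clmp and Mcts1, out of 9429 genes with a mean of at least 10 CPM. Their Pearson correlation with Acta2, on log2(CPM + 1), lay between 0.998 and 0.999, where the 6 points are 3 pairs of replicates and the value rests mainly on the 2 ATRX KD libraries. Ltbp4, which encodes a latent TGF-β binding protein of the matrix, was at 31.0 and 27.8 CPM for WT, 26.8 and 27.4 for ATRXΔRBR, and 5.78 and 6.11 for ATRX KD. Clmp, an adhesion protein gene, was at 78.5 and 65.3, 64.9 and 62.7, and 0.327 and 0.509 CPM. Rrad, a small GTPase gene, was at 22.9 and 20.6, 16.9 and 22.4, and 1.20 and 1.71 CPM. Because these genes were picked for their likeness to Acta2 in the same 6 libraries, their low ATRX KD values follow from the choice.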

How the data were processed

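RNA-Seq and CUT&RUN of MEFs were analysed from 6 RNA-Seq files and 16 peak lists, and IgG libraries were not analysed here. For RNA-Seq, the authors used STAR for alignment and RSEM for the estimated counts and TPM per gene that they deposited. They mapped CUT&RUN reads to mm10 with Bowtie2 and called broad peaks per library with MACS2. The deposited −log10 q values and fold enrichment of peaks (a ratio to local background) are MACS2 output, and were not compared between lists because the files do not give the depth of each list. The deposited score of a peak and its −log10 p were not used.

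After rounding of estimated counts, each comparison took the genes whose counts in its 4 libraries summed to over 10 into edgeR 4.0.16 in R 4.3.3 (TMM normalization, quasi-likelihood test, two-sided, adjusted p under 0.05). With 2 libraries per genotype, no permutation of a single gene could pass 0.05, so p-values come from this fit, which pools spread over genes. DESeq2 1.42.0 and limma 3.58.1 on log2(TPM + 1) or log2(TPM + 0.1) were alternatives, with other filters, normalization, fits and libraries left out. The test was tried on simulated counts with 200 changed genes. CPM used TMM factors over 6 libraries. Genes were matched to GENCODE M21, in which 53706 of 53801 identifiers were found. Near-identical transcripts were found with BLAST+ 2.17.0.

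The 10 genes, the related lists and the markers were chosen with earlier results of these data known. From each related list, the genes called in a comparison were named, at most the 3 with the largest change in each direction, and for Acta2 the 5 genes most correlated with it. Myl12b had more than 1 identifier and was left out of its list. Some related genes, and the counts of lists that hold them, are not reported here. Same-numbered replicates of WT and ATRXΔRBR deviated in opposite directions (r = -0.53), with r = -0.07 for ATRX KD and WT and 0.09 for ATRX KD and ATRXΔRBR. The numbers were therefore not treated as pairs.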

Additional observations from a re-analysis of the deposited data

How the results depend on the processing

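The 6 genes called lower in ATRX KD against WT kept their direction in every alternative, and 5 of them (not Srf) their call. Members called in the other comparisons varied more. In ATRXΔRBR against WT, 1 was called with DESeq2, 2 with no filter on low counts and 1 with all 6 libraries in a single fit. In ATRX KD against ATRXΔRBR, 2 were called with limma on either TPM scale, and 2 to 7 when 1 library was left out. The 7 were reached without ATRXΔRBR replicate 1 and the 2 without ATRX KD replicate 2. In fits that leave out a library, the lone library is assumed to vary like the other group.

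Over all genes, the 1120 calls of ATRXΔRBR against WT became 1979 with no filter, 597 with at least 10 counts in every library, 1815 with all 6 libraries in a single fit, 487 with limma on log2(TPM + 1) and 518 on log2(TPM + 0.1), and ranged from 1050 to 1523 when 1 library was left out. Calls of ATRX KD against WT (5542) ranged from 3194 (without ATRX KD replicate 2) to 8953 (without WT replicate 2) in this way, with 3520 without ATRX KD replicate 1, and calls of ATRX KD against ATRXΔRBR (5734) from 3088 to 8734 (without ATRXΔRBR replicate 1), with 3485 without ATRX KD replicate 1. The cause was not tested. On log2(TPM + 1), the median of all genes moved to 0.17 in ATRX KD against WT and 0.14 in ATRX KD against ATRXΔRBR, and the split of higher and lower calls was 2650 and 1469 in place of 2553 and 2989, and 2743 and 1747 in place of 2683 and 3051. With the replicate block, 1068, 5796 and 6775 genes were called in the 3 comparisons, and of the 10 genes Tagln changed its call, in ATRX KD against ATRXΔRBR (-0.87, adjusted p = 0.0392). A crossed replicate block, added after the data were seen, called 5547 genes and 3 of the 10 genes in ATRXΔRBR against WT.

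Directions reversed for genes that were not called with all libraries. With limma on log2(TPM + 1) and log2(TPM + 0.1), Srf was at 0.0238 and 0.0243 in ATRXΔRBR against WT, Cnn2 at 0.043 and 0.0432 in ATRX KD against WT, and in ATRX KD against ATRXΔRBR both scales gave 0.27 for Actb and 0.18 for Cnn2. When 1 library was left out, ATRXΔRBR against WT ranged from -0.26 to 0.69 for Actb, -0.48 to 0.054 for Cnn2, -0.18 to 0.49 for Tpm2 and -0.13 to 0.0738 for Srf. The lowest values of Actb, Tpm2 and Cnn2 came without WT replicate 2. ATRX KD against WT ranged from -0.72 to 0.75 for Actg2 and -0.36 to 0.58 for Actb, and ATRX KD against ATRXΔRBR from -0.29 to 0.10 for Actb and -0.34 to 0.0224 for Cnn2.

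Of the 10 genes, 1 had ATRX at a TSS in both WT lists, 3 in both ATRXΔRBR lists and 2 EZH2 in both ATRX KD lists when the start of any transcript was counted. With a q-value of 0.01 or less, 0 had ATRX and 2 had EZH2 in both ATRXΔRBR lists. The shares of coding genes with any transcript start counted, or at this q-value, were not computed. Single lists gave 1 to 2 genes for ATRX in either genotype and for EZH2 in ATRX KD. The share of coding genes was 7.64 to 21.9% in single ATRX lists, and 28.3 and 36.6% in the ATRX KD lists of EZH2. Peaks of the ATRX KD lists are named in another form than the others, and whether the libraries were prepared together is not given, so preparation and genotype cannot be told apart.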
